A study of Mus musculus with 6 samples.

Results

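Genes that hold back mTORC1 were followed in the quadriceps of AR97Q mice that had or had not exercised: the sestrins Sesn1, Sesn2 and Sesn3, the REDD genes Ddit4 and Ddit4l, Deptor, Akt1s1, and the tuberous sclerosis genes Tsc1 and Tsc2. They were taken by name and made up 9 of the 25005 genes and transcripts tested. They were read by 13 of the 56605 probes, and all 13 probes were well above background on all 6 arrays. With each array scaled to its 75th percentile, Ddit4l and Akt1s1 rose in the exercise group and no member was called lower. Of all genes, 11.5% were called higher and 6.15% lower. With the authors' deposited table Ddit4l alone was called higher, while Sesn1 and Sesn3 were called lower, where 4.69% and 12.8% of all genes were. Without scaling 1 member was called higher and 5 lower, where 2.47% and 45.1% of all genes were. With the 75th percentile scaling, the 3 sestrins were lower on every exercised array than on any sedentary one, as were 18.2% of all genes. None of the 3 passed the test under that scaling, and Ddit4 had the widest spread between mice of all members.

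mTORC1 is a protein kinase complex at the lysosome that promotes protein synthesis and cell growth when amino acids, growth factors and energy are plentiful. Sestrins restrain it through the amino acid arm, in which the Rag GTPases bring the complex to the lysosome. REDD proteins act through TSC1 and TSC2, which together switch off Rheb, the small GTPase that activates the kinase, while DEPTOR and PRAS40, the product of Akt1s1, bind the complex itself. In skeletal muscle this pathway is known for its part in fibre size, and several of these inhibitors are known to respond to stress, fasting or glucocorticoids.

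AR97Q mice are transgenic for the human androgen receptor gene with a lengthened CAG repeat and model spinal and bulbar muscular atrophy (SBMA), a motor neuron and muscle disease of men. All 6 mice were males carrying this transgene on a C57BL/6J background, and their muscle was taken at 9 weeks of age. The 3 mice of the exercise group had trained on a forced running wheel at low to moderate intensity and were sampled the day after their last bout, and the 3 sedentary mice had not been trained. Wild-type arrays were not analysed here, so the values compare exercise with rest in the disease model alone. The promoter that drives the transgene was not given in the sources used here. The study measured these arrays to look for pathways behind the effect of exercise.

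Each value below is a scaled log2 signal, that is, log2 of the processed brightness of the probe minus the 75th percentile of its array. A difference is the exercise mean minus the sedentary mean on this scale, and a gene is called higher or lower where its limma adjusted p, over all 25005 genes and transcripts, was under 0.05. Values of different probes cannot be set against each other as levels. Arrays of 1 group correlated at 0.989 to 0.993, and 54.6 to 59.9% of the probes were well above background. The 75th percentile before scaling was 251 to 257 in the exercise group and 310 to 384 in the sedentary group, so the scaling itself moved with the group. All arrays lay on 1 slide. The position code in each file header, read by the usual numbering of such slides, which the sources used here do not spell out, puts the exercise arrays and sedentary mouse 1 in the first strip and sedentary mice 2 and 3 in the second. So read, strip and group overlap in large part.

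The muscle identity of the samples was checked first. All 8 muscle fibre markers were detected, and their summed scaled signal was 3806 to 4300 in the exercise group and 1841 to 2589 in the sedentary group. Of these 8 genes, 6 were called higher, among them Ckm, muscle creatine kinase, with a difference of 1.50 and Mb, myoglobin, with 1.20. Because whole muscle was measured, fewer cells of a type and less RNA per cell cannot be told apart.

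The stretches of sequence just before the start of transcription are shown for both REDD genes, for Akt1s1 and for Sesn3, the sestrin with the lowest p, to set the members that rose beside those with lower values. They are the 250 bases before the start in RefSeq (GRCm38.p6), where 8 of the 9 members had an entry. Capitals mark the GC box, GGGCGG on either strand, and the decamer of the p53 consensus. Ddit4l, chr3:137623422-137623671 on the plus strand, holds 2 GC boxes and 1 p53 decamer. Akt1s1, chr7:44850122-44850371 on the plus strand, holds 2 GC boxes, while Sesn3, chr9:14276051-14276300 on the plus strand, and Ddit4, chr10:59951771-59952020 on the minus strand, hold 1 each.
Ddit4l: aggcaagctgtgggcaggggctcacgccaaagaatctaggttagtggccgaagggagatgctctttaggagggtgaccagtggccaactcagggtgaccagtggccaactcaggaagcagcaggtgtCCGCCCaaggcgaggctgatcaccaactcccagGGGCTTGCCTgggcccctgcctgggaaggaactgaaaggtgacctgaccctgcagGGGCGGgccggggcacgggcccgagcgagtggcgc
Akt1s1: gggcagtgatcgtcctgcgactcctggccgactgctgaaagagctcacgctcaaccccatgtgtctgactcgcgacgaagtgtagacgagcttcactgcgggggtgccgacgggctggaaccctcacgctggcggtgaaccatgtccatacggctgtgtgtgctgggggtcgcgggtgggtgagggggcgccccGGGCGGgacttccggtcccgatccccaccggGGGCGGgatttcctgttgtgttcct
Sesn3: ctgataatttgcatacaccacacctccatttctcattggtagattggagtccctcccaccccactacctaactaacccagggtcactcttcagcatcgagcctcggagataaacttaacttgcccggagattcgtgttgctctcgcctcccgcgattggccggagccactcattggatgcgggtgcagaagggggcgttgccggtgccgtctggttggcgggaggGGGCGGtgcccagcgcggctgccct
Ddit4: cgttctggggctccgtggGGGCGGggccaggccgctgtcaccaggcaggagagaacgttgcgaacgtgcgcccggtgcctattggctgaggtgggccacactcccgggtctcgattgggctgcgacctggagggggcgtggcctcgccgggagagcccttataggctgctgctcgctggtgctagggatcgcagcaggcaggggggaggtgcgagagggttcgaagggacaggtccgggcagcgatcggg

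Over the 9 promoters of the 8 members, Sesn1 having 2, a GC box was in 7, against 32.7% of the 32851 promoters in the table. The p53 decamer was in 2, those of Ddit4l and the second of Sesn1, against 7.13% of all promoters. Both strands were also searched for the FoxO site GTAAACA, the ATF4 composite site TGATGNAA, the E-box CACGTG, the glucocorticoid receptor core TGTTCT, the AP-1 site TGANTCA and the CREB site TGACGTCA. None of these letters occurred in the 9 windows, and in all promoters their shares were 3.17%, 3.45%, 6.02%, 16.1%, 6.75% and 1.55%. A match describes the letters of the window and no more.

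**Figure D1:**
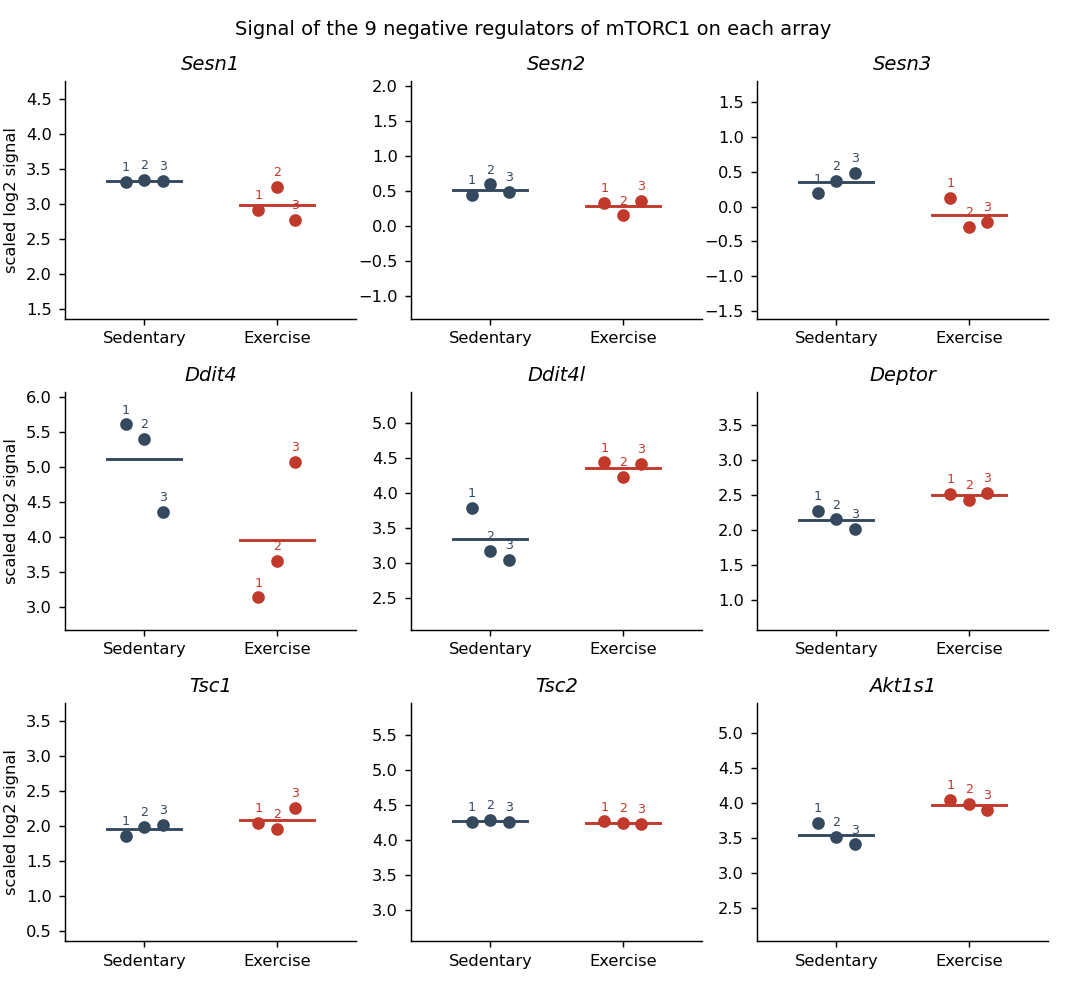
Scaled log2 signal (vertical axis, the same span of units in each panel) of the 9 negative regulators of mTORC1 on the 3 sedentary (blue) and 3 exercise (red) arrays. Points are mice, numbered as in the labels, and bars are group means. Ddit4l and Akt1s1 lie apart and higher after exercise, Ddit4 overlaps widely, and the 6 Tsc2 points lie nearly on 1 line.

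Ddit4l, which encodes REDD2 and is known for its expression in skeletal muscle, had the clearest difference of the members. Its scaled log2 signal was 4.44, 4.23 and 4.42 in the exercised mice and 3.79, 3.17 and 3.05 in the sedentary mice. All exercised mice lay above all sedentary mice, and sedentary mouse 1 was the nearest to the exercise group. The difference was 1.03 (SE 0.21, 95% interval 0.53 to 1.52, limma adjusted p = 0.0280), which is 2.04-fold with an interval of 1.44 to 2.88. Ddit4l was the one member past the study's rule of an adjusted p under 0.05 and an absolute log2 difference of at least 1, which 1.72% of all genes passed as higher and 1.06% as lower. Before scaling its signal was 4826 to 5561 after exercise and 3171 to 4293 at rest, so the groups were also apart without scaling.

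Akt1s1 encodes PRAS40, a substrate of Akt that inhibits the kinase at its substrate site. It read 4.05, 3.99 and 3.91 after exercise and 3.72, 3.52 and 3.41 at rest, again with no overlap. The difference was 0.43 (SE 0.11, 95% interval 0.17 to 0.69, limma adjusted p = 0.0441), or 1.35-fold. The second Akt1s1 probe gave the same difference of 0.43, with a limma adjusted p of 0.0338 in a fit of all probes. Before scaling, however, the Akt1s1 signal was 3757 to 4249 in the exercise group and 4074 to 4246 in the sedentary group, so its rise is a rise relative to the other genes of each array.

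Deptor encodes an inhibitor that binds the mTOR kinase. Its values were 2.52, 2.43 and 2.54 in the exercise group and 2.27, 2.15 and 2.01 in the sedentary group, with no overlap. The difference of 0.35 (SE 0.10, 95% interval 0.11 to 0.59) did not pass the test (limma adjusted p = 0.0585). The second probe gave 0.30, also without overlap (limma adjusted p = 0.141). As for Akt1s1, the signal before scaling was no higher after exercise, 1379 to 1476 against 1502 to 1646.

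Ddit4l, Akt1s1 and Deptor ran together over the 6 arrays. Pearson's r was 0.98 between Ddit4l and Deptor, 0.98 between Ddit4l and Akt1s1 and 0.96 between Deptor and Akt1s1, as a description of 6 arrays that share the group difference and the scaling. The mean of the 8 muscle fibre markers also correlated with them over the 6 arrays, with r of 0.987 for Ddit4l, 0.984 for Deptor and 0.952 for Akt1s1. For the sestrins its r was negative, at -0.827 for Sesn1, -0.772 for Sesn2 and -0.879 for Sesn3. It was -0.431 for Ddit4, 0.509 for Tsc1 and -0.611 for Tsc2. Within the exercise group Deptor had the same order of mice as the marker mean, with mouse 3 highest and mouse 2 lowest. Ddit4l was highest in mouse 1 and lowest in mouse 2, and Akt1s1 was lowest in mouse 3. The part of these markers in the differences was not tested. In the first strip alone, as so read, the exercise mean exceeded sedentary mouse 1 by 0.57 for Ddit4l, 0.26 for Akt1s1 and 0.22 for Deptor. With the strip as a block the limma adjusted p was 0.165 for Ddit4l and 0.310 for Akt1s1, so both calls were lost. Of all 25005 genes and transcripts, 0 were then called higher and 3 lower. Within a strip, as so read, that fit sets the exercised mice against sedentary mouse 1 alone.

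**Figure D2:**
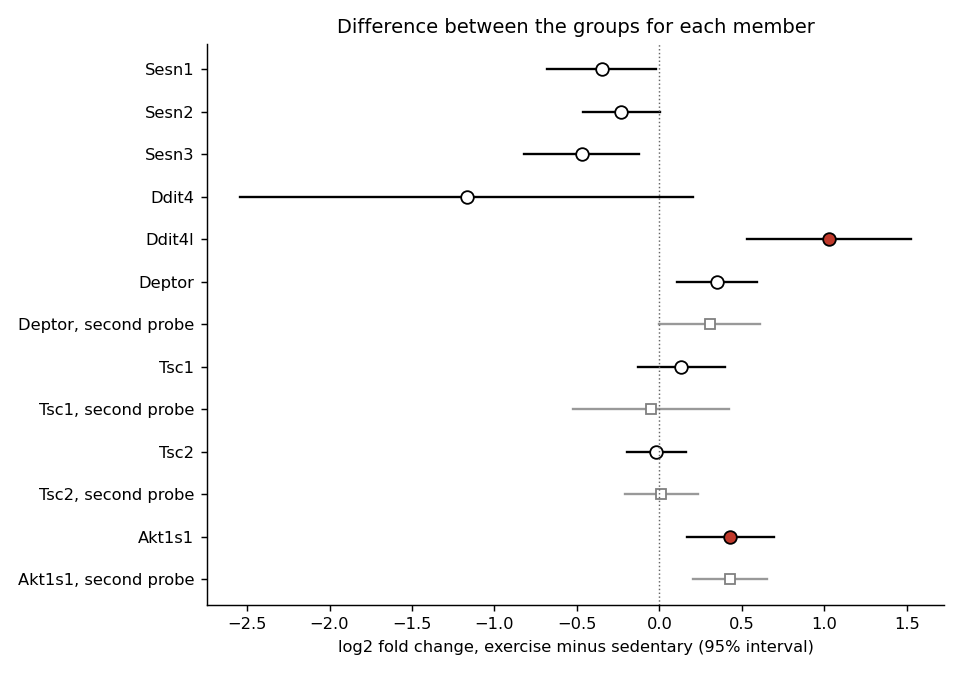
Log2 difference, exercise minus sedentary, for each member with its 95% interval from limma. Circles are the brightest probe of each gene, filled red where the gene was called higher, and open grey squares are second probes from a fit of all probes, drawn without marking calls. The intervals of Ddit4l, Akt1s1 and the first Deptor probe lie right of 0, as does that of the second Akt1s1 probe, those of Sesn1 and Sesn3 lie left of it, and that of Ddit4 is the widest.

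The sestrins bind the GATOR2 complex and lower mTORC1 activity, with Sesn2 known as a sensor of leucine. Sesn3 read 0.13, -0.29 and -0.21 in the exercised mice and 0.19, 0.37 and 0.48 in the sedentary mice. The groups did not overlap, though exercised mouse 1 and sedentary mouse 1 were close. The difference was -0.47 (SE 0.14, 95% interval -0.82 to -0.12), with a limma adjusted p of 0.0688, so Sesn3 was not called.

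Sesn1, a target of p53, read 2.92, 3.25 and 2.78 after exercise against 3.32, 3.35 and 3.33 at rest. The sedentary mice lay within an SD of 0.017 and the exercised mice spread more widely (SD 0.24), all below them. The difference was -0.35 (SE 0.14, 95% interval -0.68 to -0.02, limma adjusted p = 0.117). Sesn2 read 0.33, 0.15 and 0.36 against 0.45, 0.59 and 0.49, again without overlap, and its difference was -0.23 (SE 0.10, limma adjusted p = 0.139).

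Correlations among the 3 sestrins varied. Sesn2 and Sesn3 correlated at r = 0.84 over the 6 arrays, Sesn1 and Sesn3 at 0.55 and Sesn1 and Sesn2 at 0.37, as descriptions. Exercised mouse 2 had the highest Sesn1 value of its group and the lowest Sesn2 and Sesn3 values. The within-array difference of Sesn3 and Sesn2 changed by -0.24 between the groups, which overlapped (exact permutation p = 0.3, two-sided). For Sesn1 and Sesn2 it changed by -0.12, also with overlap (exact permutation p = 0.6). The smallest p that 3 arrays against 3 allow is 0.1, so neither comparison could have passed the threshold used here. These p-values therefore cannot decide whether the sestrins differed in their change. Sesn1 and Sesn3 were not compared in this way.

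Ddit4 encodes REDD1, which releases TSC2 from its binding to 14-3-3 proteins and is known to be induced by glucocorticoids, hypoxia and DNA damage. Its values were 3.14, 3.65 and 5.08 in the exercised mice and 5.61, 5.40 and 4.36 in the sedentary mice. Exercised mouse 3 lay above sedentary mouse 3, so the groups overlapped. The exercise mean was lower by 2.25-fold, with a log2 difference of -1.17 (SE 0.57, 95% interval -2.54 to 0.21) that did not pass the test (limma adjusted p = 0.188). Its SD within the groups, 0.855, was larger than that of 98.3% of all genes tested.

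Of the 6 adipocyte markers, 4 split the arrays much as Ddit4 did. Adipoq (adiponectin), Plin1 (perilipin), Cidec and Retn (resistin) were low in exercised mice 1 and 2 and near the sedentary values in exercised mouse 3. Over the 6 arrays the r with Ddit4 was 0.961 for Cidec, 0.934 for Plin1, 0.908 for Adipoq, 0.896 for Retn, 0.793 for Fabp4 and -0.54 for Lep (leptin). All 6 adipocyte markers were detected. Their summed scaled signal was 128 to 266 in the exercise group and 198 to 246 in the sedentary group, Lep alone was called higher, by 0.35, and none was called lower. The mean of the adipocyte markers correlated with Ddit4 at r = 0.928, and with the other members between -0.62 (Akt1s1) and 0.645 (Sesn2). The part of fat in the Ddit4 values was not tested.

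**Figure D3:**
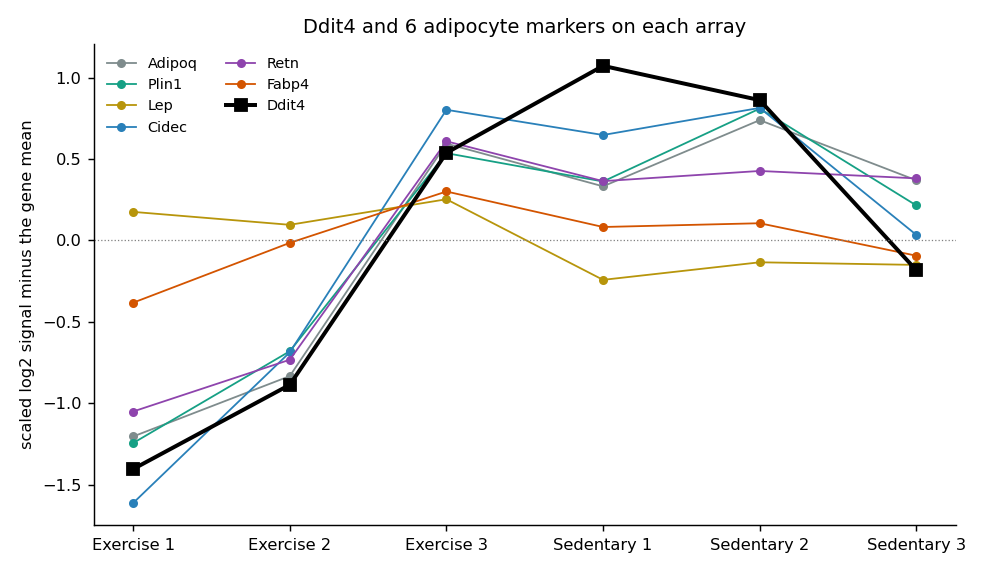
Scaled log2 signal minus the mean of the gene over the 6 arrays (vertical axis) for Ddit4 (black squares) and the 6 adipocyte markers (coloured circles) on each array. Ddit4, Adipoq, Plin1, Cidec and Retn are all lowest in exercised mouse 1 and next lowest in exercised mouse 2, while Lep does not follow them.

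Ddit4 and Ddit4l, the 2 REDD genes, were also compared within the same arrays, where 3 arrays against 3 allow no p under 0.05. The log2 signal of Ddit4l minus that of Ddit4, which no scaling by 1 factor per array can change, was higher by 2.19 in the exercise group, without overlap. Its exact two-sided permutation p was 0.1, the smallest that 3 arrays against 3 allow, and 0.2 after adjustment over the 8 pairs of members compared, which were chosen with their values known. The same p of 0.1 was found for Ddit4l against Sesn1, with a change of 1.38, and against Sesn3, with 1.50. For Ddit4 against Tsc2 the change was -1.15, and the groups overlapped (exact permutation p = 0.2).

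Tsc1 and Tsc2 encode the complex that turns off Rheb. Tsc2 was the steadiest member, at 4.27, 4.24 and 4.23 after exercise and 4.25, 4.28 and 4.26 at rest. The groups overlapped, and the difference was -0.02 (SE 0.07, 95% interval -0.20 to 0.16, limma adjusted p = 0.871). Its SD within the groups was 0.0186, and 0.0800% of all genes tested had a smaller one. Tsc1 read 2.05, 1.96 and 2.26 against 1.86, 1.99 and 2.02, also overlapping, with a difference of 0.13 (95% interval -0.13 to 0.40, limma adjusted p = 0.410). Second probes gave 0.01 for Tsc2 and -0.05 for Tsc1.

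Of the 9 members, then, 2 were called, where 17.6% of all genes were. Both were higher, where 11.5% of all genes were, and 0 were called lower by limma, where 6.15% of all genes were. At an unadjusted p under 0.05 there were 3 higher (Ddit4l, Akt1s1, Deptor) and 2 lower (Sesn1, Sesn3). The groups did not overlap for 6 of the 9 members, against 43.2% of all genes. In 3 of these the exercise values were higher, against 25% of all genes, and in 3 lower, against 18.2%. The median difference of the members was -0.02, beside 0.03 over all genes. Among all genes called, 65.1% were higher, but with the value table that the authors deposited this share was 26.8% and without scaling 5.19%.

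Several calls, and the sign for Deptor, Tsc1, Tsc2 and Akt1s1, depended on that scaling. With the deposited table, Sesn1 (-0.51, limma adjusted p = 0.0414) and Sesn3 (-0.63, limma adjusted p = 0.0413) were called lower, Ddit4l stayed called higher at 0.87, and Akt1s1 was no longer called (0.27, limma adjusted p = 0.116). Without any scaling, Sesn1, Sesn2, Sesn3, Ddit4 and Tsc2 were called lower, as were 45.1% of all genes. The median of all genes was itself -0.45. Measured from the median of all genes, the differences were 1.00 for Ddit4l, 0.41 for Akt1s1, 0.32 for Deptor, 0.11 for Tsc1, -0.04 for Tsc2, -0.26 for Sesn2, -0.38 for Sesn1, -0.50 for Sesn3 and -1.19 for Ddit4, whichever 1-factor scaling was used. Under 13 other settings Ddit4l was called in 11, Akt1s1 in 6, Sesn3 in 5 and Sesn1 and Deptor in 4. Sesn2 was called in 3, Ddit4 and Tsc2 in 1 and Tsc1 in 0. Over all genes these settings called from 0 with the replicate block to 11897 without scaling. Where Ddit4l was called, 2.47% to 24.5% of all genes were called higher. That share was 10.8% to 24.5% for Akt1s1 and 14.9% to 21.7% for Deptor. Where Sesn3 was called, 7.98% to 45.1% of all genes were called lower, and for Sesn1 and Sesn2 8.08% to 45.1%.

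Sedentary mouse 1 was the highest of its group for Ddit4l, Akt1s1 and Deptor, nearest to the exercised mice. Without it the limma adjusted p was 0.00901 for Ddit4l and 0.0232 for Akt1s1, and Deptor was called as well (0.0384). Without any other single mouse the adjusted p of Ddit4l was 0.0662 to 0.104 and that of Akt1s1 0.0829 to 0.141, and at most 1 of all 25005 genes was called. The difference of Ddit4l stayed between 0.88 and 1.25 when any mouse was left out. For Ddit4 it ran from -1.73 without exercised mouse 3 to -0.76 without exercised mouse 1.

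**Figure D4:**
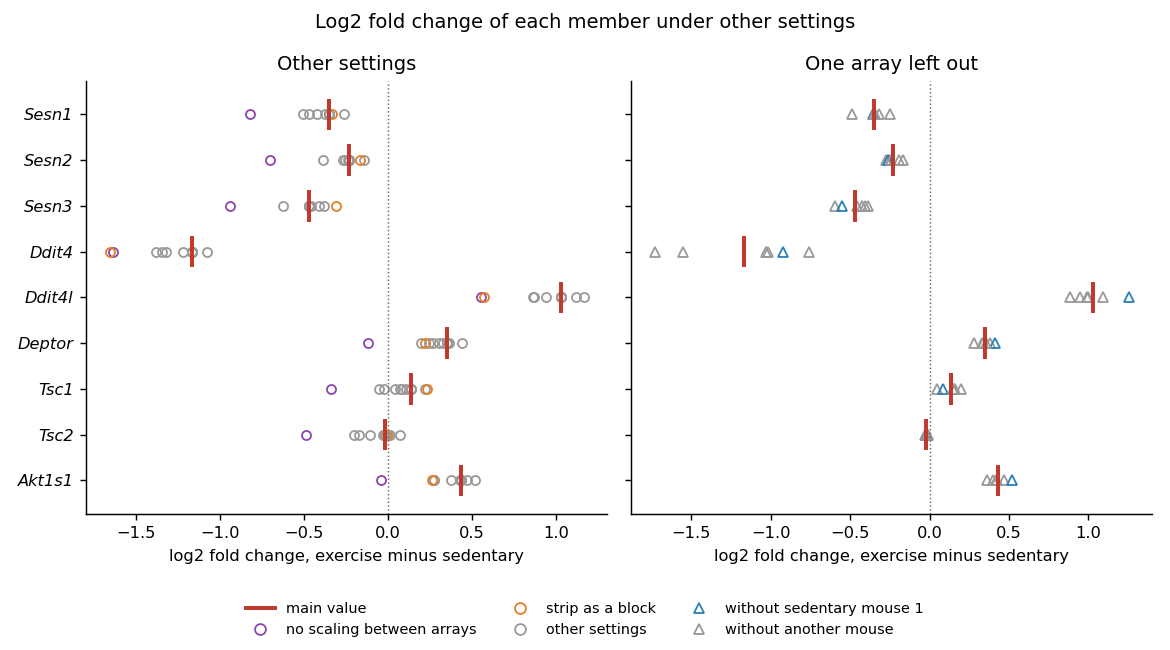
Log2 difference, exercise minus sedentary, of each member under 13 other settings (left) and with each mouse left out (right); the red line is the value reported. No scaling (purple) moved every member to the left, past 0 for Deptor, Tsc1 and Akt1s1. The strip as a block (orange) brought Ddit4l from 1.03 to 0.57.

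The rest of the pathway was read from 9 lists with 115 genes, of which 112 were tested. Of these, 10 were called higher and 4 lower, and their median difference was 0.01. The shares called, 8.93% and 3.57%, were below those of all genes, 11.5% and 6.15%.

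Among 16 further inhibitors of mTORC1, the median difference was 0.0011. Tbc1d7, the third subunit of the TSC complex, read 2.94, 2.91 and 2.78 after exercise and 2.54, 2.52 and 2.41 at rest, a rise of 0.39 (limma adjusted p = 0.0369). The arginine sensors Castor1 and Castor2 did not pass the test, with differences of 0.15 and -0.14 (limma adjusted p = 0.684 and 0.297).

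Of 8 genes of the mTORC1 core and Rheb, 1 was called. Telo2, a chaperone cofactor in the assembly of mTOR complexes, fell by 0.36 (limma adjusted p = 0.0369). In the amino acid arm of Rag GTPases, Ragulator and GATOR2, 20 of 21 genes were tested. Slc3a2, the heavy chain shared by amino acid transporters, rose by 0.78 (limma adjusted p = 0.0236), and Slc38a9, a lysosomal arginine sensor, fell by 0.53 (limma adjusted p = 0.0338).

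Among 13 genes of the growth factor arm and mTORC2, Pik3cd, a catalytic PI3-kinase subunit, rose by 0.75 (limma adjusted p = 0.0436). Mapkap1, the mTORC2 subunit SIN1, rose by 0.30 (limma adjusted p = 0.0459).

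The 17 effectors downstream of mTORC1 had the highest median of the lists, 0.28, and 14 of the 17 differences were above 0, against 52.8% of all genes. This depended on the processing. With the deposited table the median was 0.12 and 10 of 17 were above 0 (36.0% of all genes). Without scaling the median was -0.19 and 1 of 17 was above 0 (13.4% of all genes). With quantile normalization it was 0.066 with 11 of 17 above 0 (47.9% of all genes). With the array median it was 0.37 with 15 of 17 above 0 (61.9% of all genes). With normexp background correction it was 0.16 with 11 of 17 above 0, beside 63.1% of all genes. Of these 17, 2 passed the test. Eif4e, the cap-binding translation factor, read 3.29, 3.23 and 3.09 after exercise and 2.81, 2.51 and 2.34 at rest, a rise of 0.65 (limma adjusted p = 0.0318). Maf1, a repressor of RNA polymerase III that mTORC1 inhibits, rose by 0.46 (limma adjusted p = 0.0431).

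**Figure D5:**
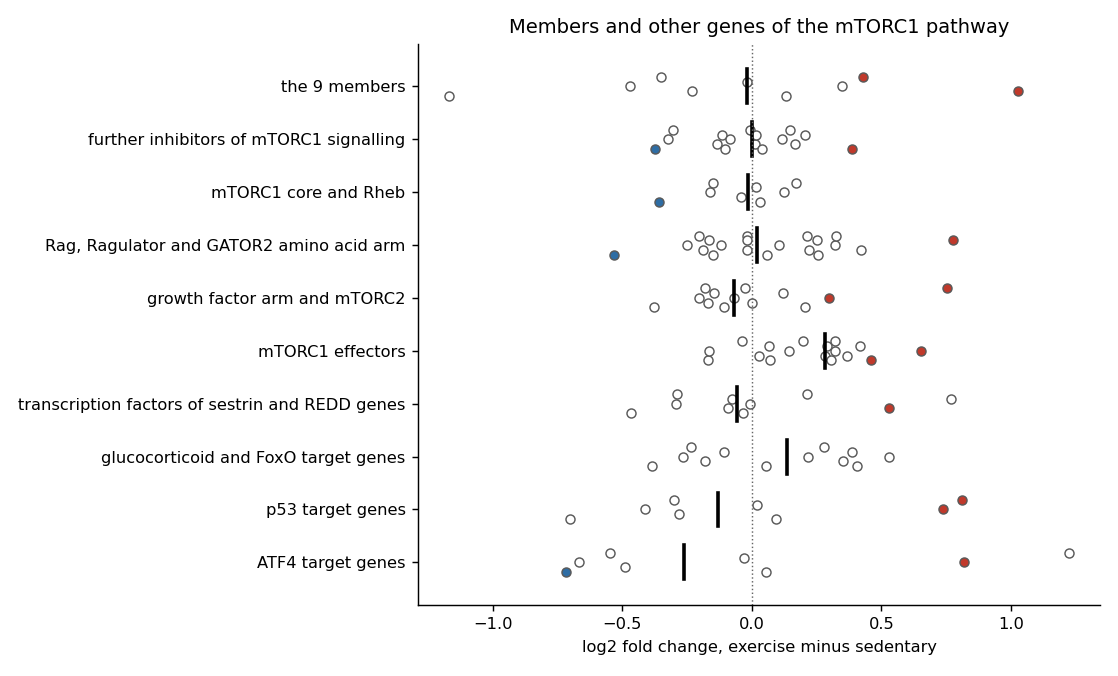
Log2 difference, exercise minus sedentary, of the members and of the genes of 9 further lists. Each circle is a gene, filled red where called higher and blue where called lower, and the bar is the median of the list. Called genes are few in every list, and with this scaling the effectors have the highest median, 0.28.

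Regulators of the members and their other known targets were read in 4 lists. Of 10 transcription factors of sestrin and REDD genes, Atf4, the factor of the amino acid and stress response, rose by 0.53 (limma adjusted p = 0.0338). Of 8 p53 target genes, Ccng1, a cyclin-like regulator, rose by 0.81 (limma adjusted p = 0.0310) and Phlda3, an inhibitor of Akt, by 0.74 (limma adjusted p = 0.0431). Of the 8 differences, 4 were above 0 and 4 below, with a median of -0.13, and no p53 target of the list was called lower.

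Of 10 ATF4 target genes, 8 were tested and they did not share a direction. Vldlr, a lipoprotein receptor, rose by 0.82 (limma adjusted p = 0.0234), while Asns, asparagine synthetase, fell by 0.72 (limma adjusted p = 0.0428). Among 12 glucocorticoid and FoxO target genes, 0 passed the test in limma, and 2 had an unadjusted p under 0.05. The lowest p was that of Trim63, the muscle ubiquitin ligase MuRF1, with a difference of 0.53 (limma adjusted p = 0.0506). The other of the 2, Fbxo32, is named outside the rule for named genes. It went the other way, with a difference of -0.39 (limma adjusted p = 0.123).

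For the 3 members with the lowest p, the genes with the most similar course over the 6 arrays were listed by Pearson's r, as a description of arrays that share the group difference. Nearest to Ddit4l were Cnnm3 (r = 0.9997, difference 0.48), Hr (r = 0.999, difference 1.15) and 2310015D24Rik (r = 0.999, difference 1.01). Nearest to Akt1s1 were Eif4e (r = 0.9995), C7, a complement component (r = 0.999, difference 0.85), and Ndufa8, a subunit of respiratory complex I (r = 0.999, difference 0.62). Nearest to Deptor were Grwd1 (r = 0.999, difference 0.30), P2rx6 (r = 0.998, difference 0.16) and Cpa4 (r = 0.998, difference 0.53).

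Few markers of the other cell types of muscle passed the test. Of 6 macrophage, 6 endothelial and 6 fibroblast markers, 0 were called in limma, and 0 had an unadjusted p under 0.05, with median differences of 0.0042, 0.022 and 0.022. All 6 Schwann cell and nerve markers had lower means after exercise, with a median difference of -0.34. Their summed scaled signal was 39.9 to 47.7 after exercise and 45.4 to 60.2 at rest, and their mean correlated at r = 0.922 with Sesn2, 0.792 with Ddit4 and 0.738 with Sesn3. Of 3 satellite cell markers tested, Pax7 was called (-0.60). Of 4 red blood cell markers 0 were called in limma, and 0 had an unadjusted p under 0.05. The part of these cells in the members' values was not tested.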

How the data were processed

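Quadriceps RNA of 6 mice was labelled with 1 dye and hybridized to 1 array per mouse. The authors' Feature Extraction 12.1.0.3 gave a background-subtracted, detrended processed signal for each spot, an intensity on a linear scale. The authors also deposited a value table whose columns equal these intensities times 1 factor per array, 1.33 to 1.88. The labels number 3 replicates per group, and the methods give 3 mice in each.

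Control spots (3671 of 62976) and outlier-flagged spots were dropped, spots of a probe were averaged as log2, and the 75th percentile of each array was subtracted. Probes missing on any array (22) and probes well above background on fewer than 3 arrays were left out, and the brightest probe stood for a gene. No spot was saturated. Probes were named through RefSeq accessions in a GRCm38.p6 table (34561 matched, 22044 not). The comparison used limma 3.58.1 (R 4.3.3), two-sided, Benjamini-Hochberg over all genes. The procedure was tested on simulated data. The number of arrays limits the precision, beside the scaling and the place on the slide.

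Members and lists were chosen with earlier results of these data known. Named genes are the members, up to 4 called genes per list (else that with the lowest p), and the 3 nearest in course to each of the 3 members with the lowest p. Some genes of the lists are not reported here. Markers were named as lists, with examples chosen after their values were seen. Alternatives were other scalings, background correction, filters, probes, blocks, weights, eBayes settings, thresholds and each array left out. Normexp used an offset of 50.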

Additional observations from a re-analysis of the deposited data

How the results depend on the processing

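Of the members, 2 were called higher. This became 1 with quantile normalization, array median, no scaling, the deposited table, the probe with the largest SD and the study's rule with a fold minimum, 0 with the replicate block and with the strip as a block (limma, 3 and 1 at an unadjusted p under 0.05), and 0 to 3 with each array left out in turn. Against 0 called lower, there were 5 without scaling, 2 with the deposited table, 3 with normexp, 3 with array weights, 1 with trend and robust eBayes and 1 at an adjusted p under 0.1. Of all genes, 7.46% were called higher with quantile normalization, 10.7% with the array median, 2.47% without scaling and 4.69% with the deposited table. Called lower were 45.1% without scaling, 12.8% with the deposited table, 8.08% with normexp, 14.6% with array weights and 7.98% with trend and robust eBayes.

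Of the other pathway genes, 10 were called higher. This became 3 with quantile normalization, 1 without scaling, 2 with the deposited table, 0 with the replicate block, the strip (limma, 21 and 7 at an unadjusted p under 0.05) or the fold minimum, 22 with array weights, 22 with trend and robust, 21 at an adjusted p under 0.1, and 0 to 15 with an array left out. The 4 called lower became 0 with the array median, 53 without scaling, 8 with the deposited table, 10 with normexp, 0 with the replicate block, the strip (limma, 9 and 7 at an unadjusted p under 0.05) or the fold minimum, 11 with array weights, 8 at an adjusted p under 0.1, and 0 to 4 with an array left out. Of all genes, 11.5% were called higher with the 75th percentile, 7.46% with quantile normalization, 2.47% without scaling and 4.69% with the deposited table. The share was 20.5% with array weights, 14.9% with trend and robust and 13.9% without sedentary mouse 1. Called lower were 6.15% with the 75th percentile, 3.49% with the array median, 45.1% without scaling and 12.8% with the deposited table. The share lower was 8.08% with normexp, 14.6% with array weights and 8.25% without sedentary mouse 1.

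The sign turned for Deptor (-0.12), Tsc1 (-0.34) and Akt1s1 (-0.042) without scaling, for Tsc1 with the deposited table (-0.025), for Tsc2 with the array median (0.069), and for both when the most variable probe was used (-0.052 and 0.012). Measured from the median of all genes, the differences were the same without scaling, with the deposited table and with the array median. The most variable probes of Tsc1 and Tsc2 were their second probes. Why the signal before scaling differed with the group was not tested. Over all genes, 4406 were called, and 3228 with quantile normalization, 3552 with the array median, 11897 without scaling, 4373 with the deposited table, 8155 with normexp, 11658 without a filter, 8756 with array weights, 0 with the replicate block, 3 with the strip and 0 to 5531 with an array left out. Same-numbered mice deviated together at r = 0.015, 0.085 and 0.036, so the numbers were not taken as pairs, and not every mouse correlated best with its own number. Signal over background did not limit the members, all of whose probes were well above it.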

Other observations

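Outside the rule for named genes, and chosen after the values were seen, the gene with the course most like that of Ddit4 was Agpat2, an acyltransferase of triglyceride synthesis known for its role in fat tissue (Pearson's r = 0.990 over 6 arrays, a description). Its scaled log2 signal was 3.43, 3.69 and 4.17 in the exercised mice and 4.39, 4.33 and 3.80 in the sedentary mice, a difference of -0.41 (limma adjusted p = 0.264).

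Of the 12 glucocorticoid and FoxO target genes, Klf15, a transcription factor induced by glucocorticoids, was nearest to Ddit4 (r = 0.966 over 6 arrays) and was likewise chosen after its values were seen. It read 1.92, 2.23 and 2.58 after exercise and 2.58, 2.61 and 2.34 at rest, with a difference of -0.27 (limma adjusted p = 0.328). Over the rest of the list r with Ddit4 ran from -0.33 for Trim63 to 0.784 for Mt1, with 0.771 for Fbxo32, 0.731 for Per1, 0.724 for Mt2, 0.097 for Fkbp5 and 0.089 for Pdk4.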
